A study of Bos taurus with 8 samples.

Results

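The entries bta-miR-2478, bta-miR-1260b, bta-miR-1246 and bta-miR-4286 of a bovine microRNA (miRNA) array bear miRNA names and are listed together as entries whose human or bovine annotation is said to overlap transfer RNA (tRNA) or U2 small nuclear RNA (snRNA). They were selected on their signal, as highly abundant entries, and on that annotation, and they made up 4 of the 744 entries of the array. Their abundance is therefore given as a description, with no test.

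Transfer RNAs bring amino acids to the ribosome, and an enzyme adds the bases CCA to their 3′ end after transcription. U2 snRNA is a part of the spliceosome, and human miR-1246 has been described as a fragment of it. Fragments of such RNAs circulate in plasma and in vesicles, and an array probe cannot tell a fragment from a miRNA that carries the same bases.

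Plasma exosomes, small vesicles collected by ultracentrifugation, came from Japanese Shorthorn steers that were either kept on pasture (grazing) or fed grass in a free-stall barn (housed). At 0, 1, 2 and 4 mo the RNA of these vesicles from 3 steers of a feeding group was combined, and 100 ng of each pool was labelled with Cy3 and hybridized to 1 array. The pools of 0 mo precede the grazing, so a difference between the labels at 0 mo is not one of feeding. Replicates are lacking, with 1 array for each feeding group and month, and the errors given are the estimates that the scanner software derives from the spots of an array. The 8 arrays lay on 1 slide, with each label in its own column and each month in its own row, so that the effects of position cannot be told apart from those of feeding or time.

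The feeding group of each array is itself in doubt, because the deposited labels and the published listing of the array values contradict one another. For the array labelled housed 0 mo, all 226 detected miRNAs lay within 1% of a column that the listing gives to grazing. For the array labelled grazing 0 mo, all 167 lay within 1% of a column of its other group. The caption of the listing gives that group the letter H and no name, while the column heads use a different letter. The other 6 arrays were swapped in the same way. Arrays are named here by their deposited labels, and by the listing every direction from housed to grazing would be turned around.

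The signal of bta-miR-2478 was the highest of the 744 entries on each of the 8 arrays. For the months in order, 0, 1, 2 and 4 mo, its total signal was 37922, 23276, 21102 and 27258 under the label housed and 19280, 18281, 20205 and 19858 under the label grazing, with error estimates between 8.19% and 8.42% of the signal. Every array labelled housed was thus brighter for this entry than every array labelled grazing, although the lowest of the former and the highest of the latter differed by less than their error estimates. A share, the signal of an entry as a percentage of all detected miRNA signal on its array, changed this order. The share of bta-miR-2478 was 24.0% (error estimate 1.56), 27.6% (1.70), 33.8% (1.92) and 30.0% (1.77) under the label housed in the same order of months, and 33.6% (1.91), 40.2% (2.08), 31.8% (1.86) and 38.5% (2.04) under the label grazing. The labels overlapped in share, with the array labelled housed 2 mo above 2 of the arrays labelled grazing. Shares describe signal and not numbers of molecules, as binding strength varies from probe to probe.

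For bta-miR-1260b, the total signal by month was 11144, 6017, 5898 and 7329 under the label housed and 5435, 5214, 5560 and 5607 under the label grazing. This entry ranked 3 on the array labelled housed 0 mo and 2 on the other 7. Its share was 7.07%, 7.14%, 9.45% and 8.06% under the label housed and 9.48%, 11.5%, 8.75% and 10.9% under the label grazing, with error estimates from 0.572 to 0.939 percentage points. The arrays labelled grazing 1 and 4 mo were the highest for both bta-miR-2478 and bta-miR-1260b, and the array labelled housed 0 mo was the lowest for both.

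The signals of bta-miR-1246 and bta-miR-4286 varied more between arrays, each over a 3.02-fold range, against 2.07-fold for bta-miR-2478 and 2.14-fold for bta-miR-1260b. Without the array labelled housed 0 mo, the highest for each entry, the ranges were 2.28-fold for bta-miR-1246, 1.89-fold for bta-miR-4286, 1.49-fold for bta-miR-2478 and 1.41-fold for bta-miR-1260b. By month, bta-miR-1246 had 5246, 3970, 2769 and 3759 under the label housed and 2533, 1738, 2325 and 1923 under the label grazing, which ranked it between 4 and 6. Its share had a median of 3.98%, with the lowest value, 3.33% (error estimate 0.308), at 0 mo and the highest, 4.71% (0.419), at 1 mo, both under the label housed. The signals of bta-miR-4286 were 2326, 1080, 983 and 1456 under the label housed and 904, 788, 952 and 769 under the label grazing, at ranks between 8 and 14. Its share stayed between 1.28% (error estimate 0.118) and 1.73% (0.166), on the arrays labelled housed 1 mo and grazing 1 mo.

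Summed over the 4 entries, the share by month was 35.9% (error estimate 1.46), 40.7% (1.47), 49.3% (1.55) and 43.8% (1.51) under the label housed. It was 49.1% (1.56), 57.2% (1.55), 45.7% (1.57) and 54.5% (1.60) under the label grazing. The arrays labelled grazing 1 and 4 mo stood highest, and the labels overlapped, with housed 2 mo next after them and above grazing 0 mo by less than the error estimates. With normexp correction of the spots for background, a model of signal plus noise, the array labelled housed 0 mo was again the lowest, at 34.4%, and that labelled grazing 1 mo the highest, at 51.2%, while grazing 4 mo had 49.0%. When bta-miR-2478 was left out of both the entries and the detected signal, the other 3 entries held from 15.6% to 28.4% of what remained, on the same 2 arrays.

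**Figure D1:**
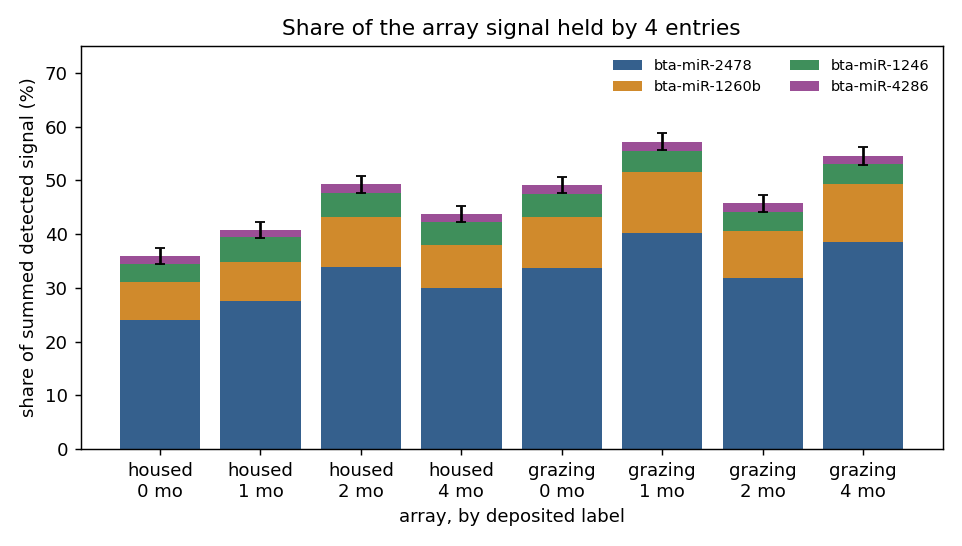
Stacked bars give the share of the summed detected signal, in percent, held by each of the 4 entries on the 8 arrays, and the black bars the error estimate of the sum. The sum is lowest, at 35.9%, on the array labelled housed 0 mo and highest, at 57.2%, on the array labelled grazing 1 mo.

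The share moved with the signal of the other miRNAs. The 4 entries together summed to 56638 on the array labelled housed 0 mo and to 26022 on the array labelled grazing 1 mo, a 2.18-fold range over the 8 arrays. The summed signal of the other detected miRNAs ranged 5.19-fold, from 19486 to 101059, on the same 2 arrays. Both ranges leaned on the array labelled housed 0 mo, and without it, an alternative chosen after seeing the data, they were 1.53-fold and 2.62-fold. Across the 8 arrays, which are pools of the same animals over time, the log2 of the summed share had a Pearson r of -0.98 with the log2 signal of the other miRNAs. This r was -0.98 for bta-miR-2478 and -0.93 for bta-miR-1260b, against -0.48 for bta-miR-4286 and -0.23 for bta-miR-1246. Without the array labelled housed 0 mo it was -0.97 for the summed share, bta-miR-2478 and bta-miR-1260b and -0.58 for bta-miR-4286, and for bta-miR-1246 it changed sign, to 0.54. The raw log2 signal of the entries rose with that of the other miRNAs, with an r of 0.96 for their sum and of 0.95, 0.91, 0.97 and 0.96 for bta-miR-2478, bta-miR-1260b, bta-miR-1246 and bta-miR-4286. The other signal is itself part of the denominator of the share, and how far that sets the relation was not tested.

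In raw signal, the entries varied less than the median miRNA. The standard deviation of the log2 total signal over the 8 arrays was 0.35 for bta-miR-2478 and 0.36 for bta-miR-1260b, ranks 3 and 4 from the lowest of the 143 miRNAs detected on all 8 arrays, whose median was 0.75. For bta-miR-4286 it was 0.53 (rank 14) and for bta-miR-1246 it was 0.55 (rank 17). These values leaned on the array labelled housed 0 mo, without which they were 0.19 (rank 3) for bta-miR-2478, 0.16 (rank 1) for bta-miR-1260b, 0.31 (rank 7) for bta-miR-4286 and 0.45 (rank 28) for bta-miR-1246, against a median of 0.67. After division by the 90th percentile of each array, the scaling that the methods of the study name, the order changed. Then bta-miR-1246 was the steadiest of the 4, with 0.19 (rank 16), while bta-miR-4286 had 0.30 (rank 60), bta-miR-2478 0.39 (rank 94) and bta-miR-1260b 0.42 (rank 103), against a median of 0.33. The 90th percentile itself ranged 3.49-fold between arrays.

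All 40 spots of each entry were well above background on every array, and 0 were saturated. The brightest spot of bta-miR-2478 reached 14.7% of the saturation value on the array labelled housed 0 mo, and the lowest median over the 40 spots of both probes, that of bta-miR-4286 on the array labelled grazing 1 mo, was 69.0 times the local background. Its shorter probe, with a mean of 286 there against 2500 for the longer, lay below that median.

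Each entry was read by a pair of nested probes with 20 spots each, of which the shorter lacked the last base of the longer. That base, at the 3′ end of the probe, pairs with the first base of the target as printed below, so both probes cover the end of the target. The bases that the longer probe pairs with are shown since the entries were grouped by their likeness to other small RNAs. Capitals mark runs of 5 or more bases shared between bta-miR-2478 and another of the entries, read 5′ to 3′ as the reverse complement of the probe.
bta-miR-2478: CCCACTtctgaCACCA
bta-miR-1260b: CACCACTgcCACCA
bta-miR-1246: ggatttttggagcagg
bta-miR-4286: CCCACTcctggtacc

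The target of bta-miR-2478 began with the same 6 bases as that of bta-miR-4286, and it ended in the same 5 bases as that of bta-miR-1260b. Both bta-miR-2478 and bta-miR-1260b had a target that ended in CCA, the end that tRNAs carry. This end was found in 10 of the 744 targets, of which 5 were detected on all 8 arrays, namely bta-miR-2478, bta-miR-1260b, bta-miR-223, bta-miR-23a and bta-miR-2328-3p. A run of 5 or more bases in common with bta-miR-2478 was found in 85 of the other 743 targets, and a run of 6 or more in 20. The target of bta-miR-1246 had at most 3 bases in a row in common with any of the other entries.

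The targets were shorter than the array median and at or above it in GC content. The longer probe had 16 bases for bta-miR-2478 and bta-miR-1246, 15 for bta-miR-4286 and 14 for bta-miR-1260b, against a median of 17 and quartiles of 15 and 19 over the array. The GC content was 50% for bta-miR-1246, the same as the array median, 56.2% for bta-miR-2478, 64.3% for bta-miR-1260b and 66.7% for bta-miR-4286. By a rule on shared runs of 8 or more bases, the target of bta-miR-2478 met that of bta-miR-677 (8 bases), and the target of bta-miR-1246 met those of bta-miR-2315 (9 bases), bta-miR-2284e, bta-miR-2284f and bta-miR-2285d (8 bases each). All 5 of these were detected on 0 arrays.

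The array design placed the longer probe of bta-miR-2478 at bases 28046330 to 28046344 on the minus strand of chromosome 9 of the build UMD_3.1. That of bta-miR-1260b lay at 14156957 to 14156969 on the minus strand of chromosome 15, and that of bta-miR-1246 at 116822083 to 116822097 on the plus strand of chromosome 1. For bta-miR-4286 the design gave a pair of places on the minus strand, at 40683929 to 40683943 of chromosome 19 and 57479181 to 57479195 of chromosome X. The positions are those of the design, whose spans are 1 base shorter than the probe for bta-miR-2478, bta-miR-1260b and bta-miR-1246 and as long as the probe for bta-miR-4286. The gene table of ARS-UCD2.0, another build that was used for gene order only, lists MIR1260B within MAML2 and MIR4286-1 within STARD3, while MIR2478, between NKAIN2 and TRDN, MIR1246, next to SUCNR1, and MIR4286-2 lie in no other gene. None of these miRNA genes overlapped a gene listed as tRNA, snRNA or snoRNA. The match of the sequences to tRNA and snRNA was not analysed here, since no genome sequence was used.

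The longer probe was the brighter of the pair for every entry on every array. For bta-miR-2478 the ratio of the longer to the shorter was 3.79, 4.33, 4.44 and 4.17 by month under the label housed and 4.32, 4.55, 4.61 and 4.48 under the label grazing. For bta-miR-1260b it was 4.03, 4.46, 4.38 and 4.33 under the label housed and 4.43, 4.58, 4.55 and 4.41 under the label grazing. The array labelled housed 0 mo was the lowest for both entries.

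The ratio was higher for the other entries. It was 7.23, 8.30, 8.56 and 7.99 for bta-miR-4286 under the label housed and 8.33, 8.74, 8.60 and 8.89 under the label grazing, again lowest on the array labelled housed 0 mo. For bta-miR-1246 it was 10.5, 7.99, 8.41 and 6.84 under the label housed and 9.45, 7.87, 7.12 and 6.92 under the label grazing. Here the 0 mo array was the highest of each label and the 4 mo array the lowest. The probe pair of bta-miR-1246 thus changed its balance between arrays the most, and the log2 signals of its probes had a Pearson r of 0.92 over the 8 arrays, against 0.997 for bta-miR-2478 and 0.999 for bta-miR-1260b and bta-miR-4286.

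Over the 121 nested pairs that differed by 1 base and could be measured, among the miRNAs detected on all 8 arrays, the median ratio had a median of 2.03 and quartiles of 1.32 and 3.56. In that order bta-miR-4286 ranked 7, bta-miR-1246 ranked 9, bta-miR-1260b ranked 18 and bta-miR-2478 ranked 19 from the highest. The standard deviation of the log2 ratio over arrays was 0.22 for bta-miR-1246, rank 109 from the lowest, 0.09 for bta-miR-4286, rank 79, 0.09 for bta-miR-2478, rank 74, and 0.06 for bta-miR-1260b, rank 42, beside a median of 0.07 over the pairs. Without the array labelled housed 0 mo it was 0.17 (rank 104), 0.052 (rank 44), 0.050 (rank 40) and 0.029 (rank 17) in the same order, beside a median of 0.068, so that this array carried much of the spread of the last 3. Spots of the same probe differed less than the probes did, with coefficients of variation from 1.11% to 7.35% within an array.

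**Figure D2:**
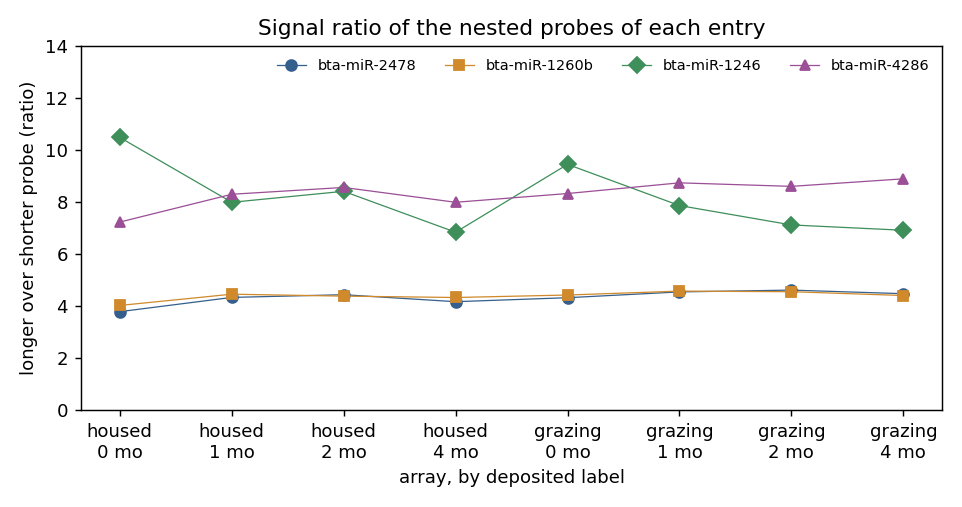
Points give the mean processed signal of the longer probe over that of the shorter probe of each entry (ratio, linear axis) on the 8 arrays, and lines join the arrays for reading only. The ratio of bta-miR-1246 runs from 6.84 to 10.5, while those of bta-miR-2478 and bta-miR-1260b lie between 3.79 and 4.61.

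The signals of bta-miR-2478 and bta-miR-1260b kept a nearly fixed proportion. Their ratio by month was 3.40, 3.87, 3.58 and 3.72 under the label housed and 3.55, 3.51, 3.63 and 3.54 under the label grazing, a 1.14-fold range that does not depend on the scaling of arrays. The standard deviation of the log2 ratio was 0.06, and 0.0985% of the 10153 pairs among the 143 miRNAs had a lower one. For bta-miR-1260b with bta-miR-4286 it was 0.20, which 7.00% of the pairs went below, and for bta-miR-1260b with bta-miR-1246 it was 0.32, which 24.4% went below. The ratio of bta-miR-2478 to bta-miR-1246 was 7.23, 5.86, 7.62 and 7.25 under the label housed and 7.61, 10.5, 8.69 and 10.3 under the label grazing, so the arrays labelled grazing 1 and 4 mo stood highest.

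Correlations of the log2 scaled signal are given over 8 arrays that share animals, slide and scaling, and hence as descriptions. Pearson's r was 0.99 for bta-miR-2478 with bta-miR-1260b (Spearman's rho 0.98), 0.91 for bta-miR-1260b with bta-miR-4286 (0.95) and 0.86 for bta-miR-2478 with bta-miR-4286 (0.88). The pairs with bta-miR-1246 were looser, at 0.72 (0.74) with bta-miR-2478, 0.71 (0.81) with bta-miR-1260b and 0.63 (0.81) with bta-miR-4286. The mean of the 6 pairs was 0.81, while all 10153 pairs had a median of 0.01 and quartiles of -0.42 and 0.51. As deviations from the mean of each label the mean of the 6 was 0.79, and without the 2 arrays farthest from the median of the x axis it was also 0.79.

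The scaling weighed on these values. The log2 scaled signals had an r with the log2 of the 90th percentile that divided them of -0.90 for bta-miR-2478, -0.86 for bta-miR-1260b, -0.65 for bta-miR-1246 and -0.60 for bta-miR-4286, and the part of the divisor in the correlations was not tested. On raw log2 signals the mean of the 6 pairs was 0.93, beside a median of 0.83 over all pairs. When arrays were scaled to their summed detected signal, the mean of the 6 dropped to 0.34, with 0.98 for bta-miR-2478 with bta-miR-1260b and -0.23 for bta-miR-1246 with bta-miR-4286. With normexp correction and its offset of 50 it was 0.39, and bta-miR-2478 with bta-miR-1260b kept 0.94. The part of the offset in this drop was not tested.

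The entries whose scaled pattern was most like that of bta-miR-2478 were bta-miR-1260b (r of 0.99 over 8 arrays), bta-miR-1281 (0.94) and bta-miR-2382-3p (0.93), and for bta-miR-1260b they were bta-miR-2478, bta-miR-1281 (0.92) and bta-miR-2382-3p (0.92). In raw signal, r with bta-miR-2478 was 0.58 for bta-miR-1281 and 0.13 for bta-miR-2382-3p, whose median shares were 0.0168% and 0.0187%. The nearest of bta-miR-4286 were bta-miR-1260b (0.91), bta-miR-2478 (0.86) and bta-miR-342 (0.86). For bta-miR-1246 they were bta-miR-2413 (0.86), bta-miR-2288 (0.85) and bta-miR-574 (0.74), and none of the other 3 entries was among them. In raw signal their r with bta-miR-1246 was 0.71, 0.49 and -0.46, so that the likeness of bta-miR-574 held after scaling alone, while that of bta-miR-342 with bta-miR-4286 was 0.96.

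The study set 1, 2 and 4 mo against the 0 mo array of the same group, to ask what grazing changes. On the log2 scale after scaling, bta-miR-2478 stood by month at 8.44, 8.13, 8.70 and 8.37 under the label housed and at 8.89, 9.19, 8.49 and 9.18 under the label grazing. The arrays labelled grazing were higher at 0, 1 and 4 mo, by 0.45, 1.07 and 0.81, and at 2 mo the difference was -0.21, with an error estimate of 0.17 for each. The signs were the same for bta-miR-1260b, with differences of 0.39, 1.21, -0.23 and 0.88 at 0, 1, 2 and 4 mo.

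The other entries had differences of the same signs, smaller than those of bta-miR-2478 at 0, 1 and 4 mo. For bta-miR-4286 the differences were 0.06, 0.96, -0.19 and 0.35 at 0, 1, 2 and 4 mo, and for bta-miR-1246 they were 0.37, 0.22, -0.40 and 0.30, with error estimates of 0.18 to 0.19. In raw log2 signal the arrays labelled grazing were lower for all 4 entries at all 4 months, by between -1.36 and -0.05, so the direction between the labels turned with the scaling at 0, 1 and 4 mo and was the same on both scales at 2 mo.

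The change from 0 mo to the mean of 1, 2 and 4 mo differed between the labels, grazing minus housed, by 0.11 (SE 0.48) for bta-miR-2478, 0.23 (0.49) for bta-miR-1260b, -0.33 (0.42) for bta-miR-1246 and 0.31 (0.45) for bta-miR-4286. By limma with month and label as terms, 0 of the 4 passed an adjusted p of 0.05 (adjusted p = 0.96 for each), and 0 had an unadjusted p under 0.05. Over all 143 miRNAs 2 passed, 1.4% of those tested, and 9 (6.29%) had an unadjusted p under 0.05. The count of 2 fell to 0 with each other scaling, signal and filter tried, with the series table and without any 1 of the later months. The fit had 2 residual degrees of freedom. Each label had 1 array at 0 mo, which the fit met exactly, so the spread came from the later months alone. How far the 0 mo arrays would vary was not measured. The 95% intervals were wide, from -0.89 to 1.11 for bta-miR-2478 and from -0.81 to 1.28 for bta-miR-1260b. The sign for bta-miR-2478, bta-miR-1260b and bta-miR-4286 turned negative when arrays were scaled to their summed detected signal.

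Over both labels, the later months minus 0 mo gave 0.01 (SE 0.23) for bta-miR-2478, -0.06 (0.24) for bta-miR-1260b, -0.13 (0.18) for bta-miR-1246 and -0.22 (0.21) for bta-miR-4286. Of the 4, 0 passed in limma with the label as a term, with adjusted p between 0.51 and 0.98, and 0 had an unadjusted p under 0.05. Of all 143 miRNAs 10 passed (6.99%), 1 higher and 9 lower, and 34 (23.8%) had an unadjusted p under 0.05. The count was 0 with the series table, without month 1 and without month 2. It was 1 with the 75th percentile and 2 with the summed signal, all of them higher. With let-7g scaling it was 15, and without month 4 it was 20. Without the array labelled housed 0 mo, an alternative chosen after seeing the data, 0 of the 143 passed. Each entry changed sign under at least 1 of the other scalings. Without the array labelled housed 0 mo, the change was 0.066 for bta-miR-2478, 0.061 for bta-miR-1260b, -0.30 for bta-miR-1246 and -0.064 for bta-miR-4286.

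**Figure D3:**
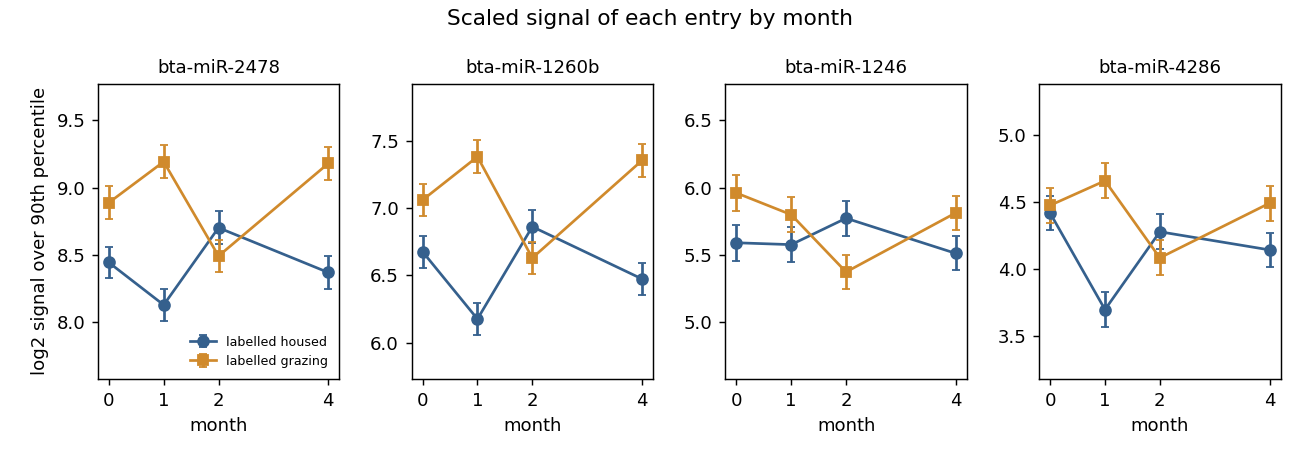
Points give the log2 signal over the 90th percentile of the array for each entry at 0, 1, 2 and 4 mo on the arrays labelled housed (circles) and grazing (squares), and bars the error estimate of the scanner software. Each panel spans the same log2 range, and the arrays labelled grazing lie above those labelled housed for bta-miR-2478 at 0, 1 and 4 mo and below at 2 mo.

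Other groups of entries set the 4 in context. Of all 744 entries, 231 were detected on at least 1 array. Among 4 entries known to lie in small nucleolar RNAs, bta-miR-664, bta-miR-1248, bta-miR-1291 and bta-miR-1839, 1 was detected, bta-miR-664 on the array labelled grazing 0 mo with a share of 0.0261%. All 8 entries of a list of GC-rich bright miRNAs, such as bta-miR-2412 and bta-miR-1777b, were detected on all 8 arrays and held between 15.1% and 34.1% of the signal, highest on the array labelled housed 0 mo, where the 4 entries were lowest. There bta-miR-2412 alone held 21.7%, and without it, a choice made after seeing the data, the other 7 held between 10.3% and 19.7%, highest on the array labelled grazing 0 mo. The list was drawn up with earlier results of these data known, in which such miRNAs fell from 0 mo. Its high levels at 0 mo may thus follow from that choice. They are given as a description, and nothing is concluded from them. Of 25 well-known blood miRNAs, such as bta-miR-126-3p and bta-miR-451, 24 were detected on all 8 arrays. Their summed share of 12.9% to 26.3% was below that of bta-miR-2478 alone, an entry selected for its abundance, on 8 of 8 arrays. On the array labelled housed 1 mo the gap, 26.3% against 27.6% (error estimate 1.70), was smaller than the error estimate.

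Markers of blood cells and tissues were measured beside them. The red cell miRNAs bta-miR-451, bta-miR-144 and bta-miR-486 were all detected and held 1.41% to 4.28%, led by bta-miR-451. The miRNAs listed for platelets and endothelium, bta-miR-126-3p, bta-miR-126-5p and bta-miR-223, held 3.57% to 8.30%. The study describes miR-223 as high in myeloid cells and highest in granulocytes, so this sum is not particular to platelets and endothelium. The share of bta-miR-223, 0.928% to 2.92%, is not counted in the leukocyte sum given next. Of the leukocyte miRNAs bta-miR-142-5p, bta-miR-142-3p, bta-miR-150 and bta-miR-155, all but bta-miR-142-3p were detected, with 0.871% to 1.62% in sum, most of it from bta-miR-142-5p. Both liver miRNAs were detected, bta-miR-192 on 8 arrays and bta-miR-122 on 5, with at most 0.0306% in sum, and of 7 muscle miRNAs 1, bta-miR-133b, was detected on 2 arrays. Over the 8 arrays the log2 of these shares had an r with that of the 4 entries of -0.28 for red cells and -0.48 for platelets and endothelium. It was -0.47 for leukocytes and -0.20 for liver. All are shares of the same array total, of which the 4 entries hold a large part, so a higher share of the 4 leaves less for the markers. How far that sets these values, and the part of the cells in the shares, was not tested.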

How the data were processed

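The authors quantified the arrays in Feature Extraction, version 10.7.3.1, by Agilent. The deposited intensity values had background removed and were not scaled between arrays, and the deposited flags for detection, background, saturation and outlier spots (other values) were used as given. The deposited series table, used as an alternative, holds a ratio on a linear scale, not centred, of signal to a factor that differs between arrays. Of its 743 names 730 matched, and its column medians were 0.000664, 0.000926, 0.00149 and 0.000915 under the label housed and 0.00187, 0.00257, 0.00135 and 0.00241 under the label grazing.

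Total signals were divided by the 90th percentile of their array over all 744 miRNAs, undetected or lower values were set to 0.114, and log2 was taken. This floor touched 5 of the 143 miRNAs detected on all 8 arrays, which were tested with limma 3.58.1 in R 4.3.3 with Benjamini-Hochberg adjustment. The fits were checked on simulated data. Other values came from Python 3.11.15, numpy 2.4.6 and pandas 2.3.3. Alternatives covered scaling, signal, filter, contrast and months.

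Members and lists were chosen with earlier results of these data known. The named miRNAs are the 4 entries, the 3 nearest in pattern to each, those sharing a run of 8 bases, and list members. Mature sequences were not used here, so that rule was applied to probe targets.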

Additional observations from a re-analysis of the deposited data

How the results depend on the processing

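Under every alternative, 0 of the 4 entries passed either limma test. Of 129 values of single entries under the alternatives, 35 reversed and 94 did not, of which 1, bta-miR-1246 between the labels under quantile normalization, was 0 to rounding and had no sign. As all of them missed the threshold their signs carry little weight. For the shifts below the cause was not tested.

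Of the 143 miRNAs, 2 differed between the labels in their change from 0 mo (2 higher, 0 lower), bta-miR-2406 and bta-miR-2412, named after their values were seen, and 9 had an unadjusted p under 0.05. The count was 0 by limma with each other scaling, both other signals, the series table, either other filter and without month 1, 2 or 4, where 4 to 16 had an unadjusted p under 0.05. With month as a block, labels compared directly gave 16 (9 higher, 7 lower) with the first month left out and 38 (17 higher, 21 lower) with it. In these direct fits the months stood as replicates of a label, although they are pools of the same steers over time, in the same slide column. The calls therefore cannot tell feeding apart from the animals of a group or from position, and the first month precedes the grazing. For both labels together the count was 10 (1 higher, 9 lower). It was 4 (0 higher, 4 lower) with no scaling, 1 (1 higher, 0 lower) with the 75th percentile, 1 (1 higher, 0 lower) with the 90th percentile over miRNAs detected on all arrays, 2 (2 higher, 0 lower) with the summed signal, 1 (1 higher, 0 lower) with the summed signal of the other miRNAs, 15 (1 higher, 14 lower) with let-7g and 8 (3 higher, 5 lower) with quantile normalization. It was 2 with no filter, 0 with the series table, where 36 had an unadjusted p under 0.05, 0 without month 1 (24 unadjusted), 0 without month 2 (29 unadjusted), 20 (4 higher, 16 lower) without month 4, and 0 (22 unadjusted) without the array labelled housed 0 mo, an alternative chosen after seeing the data.

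Some miRNAs had no residual spread in a fit, and were left out of it. With a floor these were miRNAs at the floor throughout or, in the fit between the labels, off it at 0 mo alone, with let-7g scaling let-7g itself, and with quantile normalization bta-miR-2478 and, between the labels, bta-miR-1260b. This was decided after a fit with no filter that kept 564 of them gave 567 calls between the labels, and 0 when they were left out. In the other test 546 were left out, and the count was 2 without them and 0 with them. It was 9 without and 8 with 1 such miRNA when detection on at least 4 arrays was asked for, and 8 without and 7 with 1 under quantile normalization.

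Scaling moved the median change of all miRNAs. Between the labels it was 0.15, and 0.72 with no scaling, -0.030 with the 75th percentile, -0.29 with the 90th over miRNAs detected on all arrays, 0.26 with let-7g, -0.18 with the summed signal, -0.28 with that of the other miRNAs and -0.0063 with quantile normalization. On both labels together it was 0.089, and -0.25, 0.38, 0.20, -0.037, 0.31 and 0.47 with the first 6 of these.

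The difference between labels reversed for bta-miR-2478 to -0.042 (75th percentile), -0.32 (90th percentile over miRNAs detected on all arrays), -0.21 (summed signal), -0.32 (summed signal of the other miRNAs), -0.14 (without month 1) and -0.018 (without month 4). It reversed for bta-miR-1260b to -0.20, -0.090 and -0.20 under the last 3 of those scalings and -0.061 without month 1, and for bta-miR-4286 to -0.12, -0.011 and -0.12 under the same 3. For bta-miR-1246 it became 0.25 with no scaling. Other settings raised the difference. With no scaling it was 0.69 (SE 1.05) for bta-miR-2478, 0.81 (1.05) for bta-miR-1260b and 0.89 (1.05) for bta-miR-4286. Without month 2 it was 0.49 (0.27), 0.66 (0.28) and 0.60 (0.37) in the same order. Labels compared directly give a difference in level and not in change, which is another quantity, and for bta-miR-1246 it was positive, at 0.041 without the first month and 0.12 with it. These 2 values are among the 35 counted as reversed. In the same order, the difference in level was 0.56 (SE 0.24) and 0.53 (0.22) for bta-miR-2478 and 0.62 (0.25) and 0.56 (0.24) for bta-miR-1260b. For bta-miR-4286 it was 0.37 (0.23) and 0.29 (0.20). The adjusted p by limma was 0.098 and 0.12 for bta-miR-2478, 0.075 and 0.13 for bta-miR-1260b and 0.26 and 0.32 for bta-miR-4286. These p-values too take the months, pools of the same steers, as replicates of a label.

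The change on both labels together reversed for bta-miR-2478 to -0.33 with no scaling, -0.12 with let-7g, -0.0090 with mean spot signals, -0.15 with normexp and -0.037 without month 4. For bta-miR-1260b it became 0.24 with the 75th percentile, 0.060 with the 90th over miRNAs detected on all arrays, 0.16 with the summed signal, 0.32 with that of the other miRNAs, 0.35 with quantile normalization, 0.013 with the series table and 0.061 without the array labelled housed 0 mo. For bta-miR-1246 it became 0.16, 0.083, 0.24 and 0.27 with the 75th percentile, the summed signal, that of the other miRNAs and quantile normalization, and for bta-miR-4286 0.074, 0.16 and 0.053 with the 75th percentile, the summed signal of the other miRNAs and quantile normalization.

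The lowest summed share was 34.4% and the highest 51.2% with normexp, and the lowest was 40.7% without the array labelled housed 0 mo. Without that array the fold range over arrays was 1.41 for bta-miR-1260b, 1.89 for bta-miR-4286 and 2.62 for the other miRNAs, the SD of the log2 signal was 0.19 for bta-miR-2478, 0.16 for bta-miR-1260b and 0.31 for bta-miR-4286, and that of the log2 probe ratio 0.050, 0.029 and 0.052. The highest summed share of the GC-rich list was 19.7% without bta-miR-2412. The probe ratio of bta-miR-4286 was 7.70 before background subtraction. The mean r of the 6 pairs was 0.58 with the 75th percentile, 0.34 with the summed signal and 0.39 with normexp. Quantile normalization holds bta-miR-2478, the brightest on every array, constant, so it gave no value for that entry or for the mean r. It gave none for bta-miR-1260b between the labels, since that entry ranked 3 on the array labelled housed 0 mo and 2 on the other 7, which left no residual in that fit. The number of arrays limits the precision of all values.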
